A study of Mus musculus with 28 samples.

Results

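The collagen genes were followed through 28 expression libraries of cells sorted from mouse lung. A gene was taken as a collagen gene when its symbol had the form of a collagen chain (Col, a type number, the letter a and a chain number), and 44 such genes stood among the 19375 genes that all 28 tables listed. They were divided into 11 fibrillar chains, 6 basement membrane (type IV) chains, 6 type VI chains and 21 others, of which 9 are fibril-associated, 4 transmembrane, 3 short-chain network and 2 multiplexin chains, with 1 anchoring fibril chain and 2 remaining chains. All mice were wild-type C57BL/6 animals aged 8 weeks. The sorted populations carried the labels AEC1 and AEC2 (type 1 and type 2 alveolar epithelial cells), ILC2 (group 2 innate lymphoid cells) and basophil. Each was taken from untreated mice, from mice given papain through the nose at 50 µg a day, and from mice given the same papain together with FK506, a calcineurin inhibitor injected into the abdomen at 0.2 mg a head a day; the labels give 2 courses of 3 days with 2 days between them. AEC1 and AEC2 had 2 libraries in each group (6 libraries each) and ILC2 had 3 in each group (9 libraries). The basophil label covered 1 untreated library, titled control1,2 (the labels do not say whether it is 1 animal or a pool), 3 papain libraries and 3 libraries with papain and FK506.

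Collagens are secreted proteins whose chains wind into a triple helix. Fibrillar collagens of types I, III and V form the tensile fibrils of the lung interstitium and are made mainly by fibroblasts and their relatives. Type IV collagen forms the sheet-like network of basement membranes beneath epithelium and endothelium, and type VI collagen forms beaded microfilaments between fibrils and basement membranes. Fibril-associated collagens such as types XII, XIV and XVI decorate fibril surfaces, and type XVIII is a basement membrane collagen that carries sugar chains. Papain is a plant protease that provokes allergic inflammation in the airways.

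Libraries were made from 10 ng of RNA with a method that reads the 3′ end of transcripts. Values were taken as CPM, a gene's reads scaled by a library total. The values of a library summed to 986819 to 992526 in AEC1 and 989854 to 992311 in AEC2, but to 519768 to 636598 in ILC2 and 612434 to 672357 in basophil tables. The divisor of the ILC2 and basophil values is unknown, so their levels are not on a known common scale with each other or with AEC. The values are not divided by transcript length, so sums over genes rest on 1 tag site for each transcript. Recovered depth was 847458 to 975134 reads in AEC1 and 1206855 to 1334579 in 5 of the 6 AEC2 libraries; in the ILC2 and basophil tables the depth is unknown, so a 0 there reads as listed at 0 and no more. The label AEC1 was not borne out by a higher summed level of type 1 alveolar markers: 12 such markers summed to 827.3 to 1126.1 CPM in AEC1 and to 1830 to 4321.8 CPM in AEC2. The list did not go 1 way, since the AEC2 sum (median 3409.2 CPM) rested largely on Ager (median 2799.35 CPM). Pdpn was at 0 in all AEC2 libraries but not in all AEC1 libraries, and Igfbp2 was at 0 in all AEC1 libraries but not in all AEC2 libraries. Rtkn2 was listed at 0 in all libraries of both. In the libraries labelled basophil, Mcpt8, Fcer1a, Il4, Ms4a2, Prss34 and Cd200r3, which define basophils, were listed at 0 in all 7. The other members of the list of 10 basophil markers, Cpa3, Gata2, Il3ra and Itga2b, were each above 0 in at least 1 of these libraries. The list summed to 42 to 626.5 CPM, with Itga2b the highest (0 to 456.2 CPM). A list of 16 myeloid markers (macrophage, monocyte, dendritic cell, with Chil3 the highest) totalled 3383.2 to 11579.8 CPM in the same libraries. Those libraries are therefore called by their label only. In AEC2, untreated replicate 2 and papain replicate 2 were nearly the same library although their labels differ. Over 4191 genes averaging at least 25 CPM in AEC2, their log2(CPM + 2) values correlated across genes at 0.986, while the other 14 AEC2 pairs lay at 0.320 to 0.446, pairs of 1 group included. Of these genes, 0.406% were at 0 in just 1 of the 2, against 14.9% to 31.2% in the other pairs. They differed by more than the sampling noise of their reads (chi-square per degree of freedom 3.07, against 51.8 to 94.3 in other pairs with recovered reads), so they were kept as 2 libraries. Which label is right is not known, and results that use AEC2 are also given without both, a choice made after seeing the data; the lone sample left in each group is then assumed to vary like the others. No other pair of a cell type exceeded 0.736. The sample labels do not say whether replicates came from separate mice. The headers number the AEC libraries 1 to 12 and the basophil libraries 1,2 and 4 to 9, and in at least some of them the row with the number is named mouse. Whether all replicates are separate mice was not established further, so p-values measure the spread between these libraries.

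The start regions of a few collagen genes are shown because the results below turn on these genes. RefSeq's promoter table (build GRCm38.p6) matched 35 of the 44 genes, and the 150 bases before the start overlapped no annotated exon for 19 of them. The 4 chosen here belong to genes that were high in AEC1 and near 0 in AEC2 libraries. They are written 5′ to 3′ on the gene's strand and end at the base before the start, with 3 promoter words in capitals where they occur on either strand: the CCAAT box, the GC box word GGGCGG and the TATA box word TATAAA.
Col3a1, chr1:45311388-45311537, plus strand: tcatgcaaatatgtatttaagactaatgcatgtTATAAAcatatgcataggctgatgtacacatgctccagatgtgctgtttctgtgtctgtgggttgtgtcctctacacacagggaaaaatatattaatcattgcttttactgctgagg
Col5a1, chr2:27886275-27886424, plus strand: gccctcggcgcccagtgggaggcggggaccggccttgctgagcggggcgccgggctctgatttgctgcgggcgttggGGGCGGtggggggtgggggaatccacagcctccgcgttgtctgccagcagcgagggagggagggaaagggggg
Col5a3, chr9:20815068-20815217, minus strand: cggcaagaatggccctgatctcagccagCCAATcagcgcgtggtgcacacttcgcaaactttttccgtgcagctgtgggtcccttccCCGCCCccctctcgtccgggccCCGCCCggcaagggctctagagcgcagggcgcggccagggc
Col6a3, chr1:90843972-90844121, minus strand: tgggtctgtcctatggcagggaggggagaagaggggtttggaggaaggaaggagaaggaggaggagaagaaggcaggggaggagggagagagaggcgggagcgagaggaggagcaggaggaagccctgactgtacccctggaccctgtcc
The Col3a1 window held TATAAA, the Col5a1 window held GGGCGG, the Col5a3 window held CCAAT and 2 copies of GGGCGG on the reverse strand, and the Col6a3 window held none of the 3 words. Over 27025 promoters of the same length, CCAAT was found in 25.3%, GGGCGG in 29% and TATAAA in 8.08%. Among the 35 collagen promoters, CCAAT was found in 7, GGGCGG in 19 and TATAAA in 4. These are matches of letters and say nothing of which factors bind.

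Type IV chains are arranged in head-to-head pairs that share a start region, and the pair Col4a3 and Col4a4 is 71 bases apart on chromosome 1. The whole stretch between them, chr1:82586850-82586920, holds none of the 3 words. It is written on the minus strand, so it begins next to Col4a3 and ends next to the start of Col4a4. Its label names the pair and not the direction.
Col4a4 to Col4a3: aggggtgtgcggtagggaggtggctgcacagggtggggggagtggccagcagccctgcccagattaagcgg
The other pairs are Col4a1 and Col4a2 on chromosome 8, whose annotated spans overlap by 22 bases, and Col4a5 and Col4a6 on chromosome X, which are 1308 bases apart. Values of both members of each pair are given together below.

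Collagen transcripts were abundant in AEC1 libraries, present at a low level in AEC2 libraries, and uneven in ILC2 and basophil libraries. Of the 44 genes, 29 were above 0 in at least 1 AEC1 library, 14 in AEC2, 17 in ILC2 and 22 in basophil libraries, and 14 were at 0 in all 28 libraries. The genes at 0 throughout included the cartilage chains Col2a1, Col9a1, Col9a2, Col9a3, Col10a1 and Col11a1, and 8 cartilage markers such as Acan were also at 0 in every AEC1 and AEC2 library. The others at 0 were Col6a6, Col8a1, Col17a1, Col19a1, Col22a1, Col24a1, Col25a1 and Col26a1. The number above 0 in every library of a cell type was 14 in AEC1, 3 in AEC2, 0 in ILC2 and 3 in basophil libraries.

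**Figure D1:**
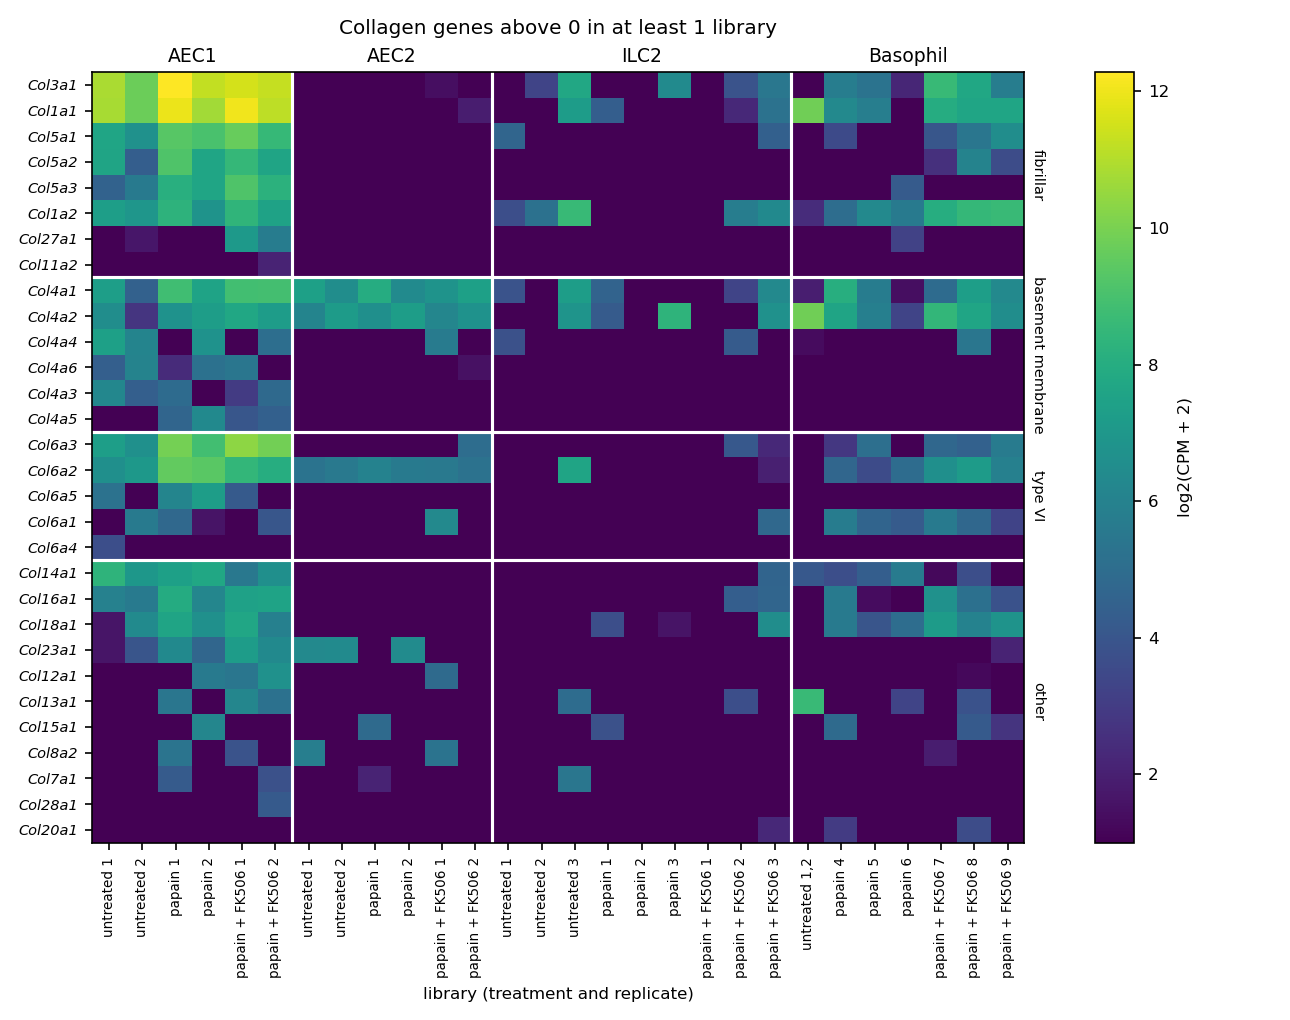
Heat map of log2(CPM + 2) for the 30 collagen genes above 0 in at least 1 library (rows, by class) in the 28 libraries (columns, by cell type and treatment). In AEC1 columns 6 fibrillar chains are above 0 throughout, while Col27a1 and Col11a2 are above 0 in only some. All fibrillar chains are near 0 in AEC2 columns, where Col4a1, Col4a2 and Col6a2 are above 0 in all 6.

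The makeup of the collagen signal differed between populations. Summed over all collagen genes, AEC1 libraries held 2725 to 14043 CPM, of which fibrillar chains made up 68.4% to 77.9%. AEC2 libraries held 346.5 to 440.8 CPM, of which type IV chains made up 55.2% to 80.1% and fibrillar chains at most 0.491%. In ILC2 libraries the sum was 0 to 139 CPM in replicates 1 and 2 and 409 to 1282 CPM in replicate 3 of each group. In basophil libraries it was 2238 CPM in the untreated library, 216.7 to 853.7 CPM after papain and 1164 to 1723 CPM after papain with FK506. These are bulk samples, so fewer cells of a type and less RNA per cell cannot be told apart.

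**Figure D2:**
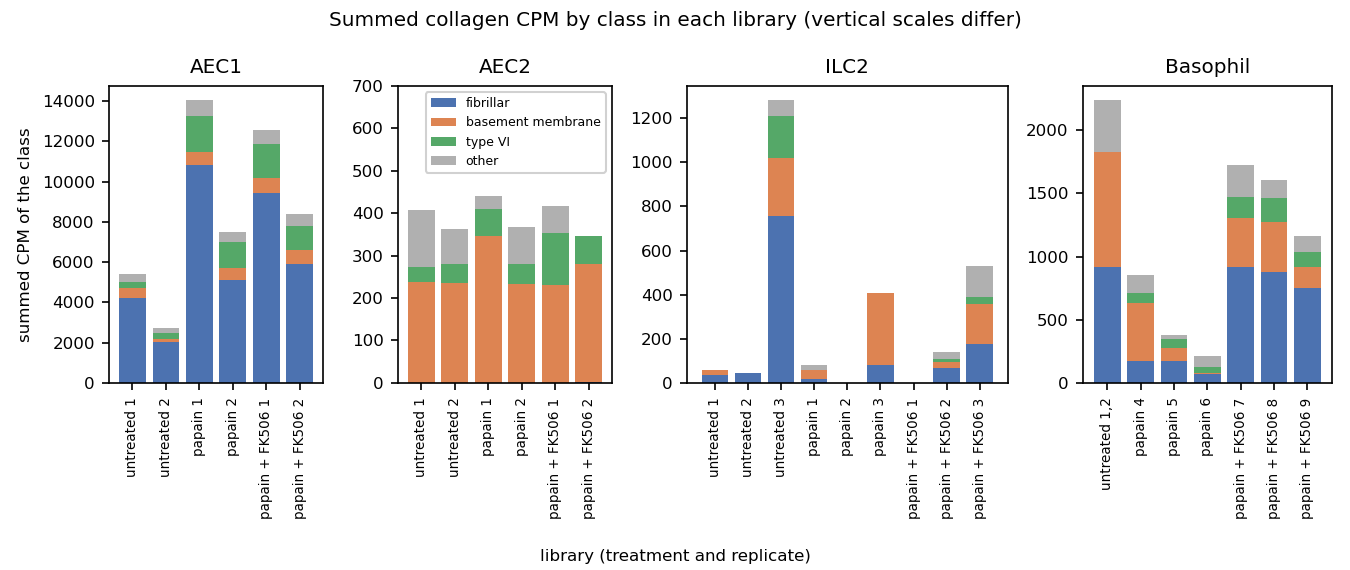
Stacked bars of the summed CPM of fibrillar, basement membrane, type VI and other collagen genes in each library, 1 panel for each cell type, each with its own vertical scale. AEC1 bars are mostly fibrillar and reach 14043 CPM, AEC2 bars are mostly basement membrane and stay between 346.5 and 440.8 CPM.

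Of the collagen genes, 13 were higher in AEC1 than in AEC2 and 0 were lower, with fibrillar chains showing the largest differences. Averaged over the 3 treatments, 26 of the 44 genes passed the filter of 10 CPM in 2 libraries and were tested among 9841 genes with limma, which called 12.7% of all genes at an adjusted p under 0.05 and 8.25% as higher in AEC1 and 4.43% as lower. The 13 called collagen genes were 6 of 7 tested fibrillar chains, 2 of 6 type IV chains, 2 of 4 type VI chains and 3 of 9 others. The median difference of the 26 was 2.88 on the log2(CPM + 2) scale, against 0.45 over all genes tested. It was 3.33 with the 12 genes at 0 in all AEC2 libraries set to the bound that 3 reads allow. Those 12 could not come out lower. Just 5 collagen genes reached 10 CPM in 2 AEC2 libraries, so most of the 26 passed the filter through AEC1 values. The median and the lack of lower calls are therefore descriptions and no test of direction. For 11 collagen genes all 6 AEC1 libraries lay above all 6 AEC2 libraries, which held for 4.9% of all genes tested. Without the near-identical AEC2 libraries, 11 of 26 were called higher and 0 lower (11.6% of 9401 genes were called), and the calls of Col4a3 and Col4a5 ended. Because the differences are taken after adding 2 CPM, they understate the change of genes near 0.

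Among the fibrillar chains, Col1a1 and Col1a2 encode the chains of type I collagen, the main fibril of lung interstitium, and Col3a1 encodes type III collagen, which is laid down in the same fibrils. Col1a1 (chr11:94936224-94953042, GENCODE positions on GRCm38) stood at 1804.7 and 859.1 CPM in untreated AEC1 libraries, 4018.2 and 1703.8 after papain, and 4242.9 and 2306 after papain with FK506. In AEC2 it was listed at 0 in 5 libraries and at 1.7 CPM in the other. The log2 difference was 9.89 (SE 0.51, limma adjusted p = 7.78e-07), and every AEC1 library lay above every AEC2 library. Col3a1 (chr1:45311538-45349706) stood at 1832.8 and 860.3 CPM untreated, 4990.2 and 2403 after papain, and 2995.5 and 2477 after papain with FK506, and reached 0.7 CPM in 1 AEC2 library. Its log2 difference was 10.04 (SE 0.49, limma adjusted p = 7.78e-07), again with no overlap. Together, Col1a1 and Col3a1 made up 54.7% to 67.4% of all collagen CPM in AEC1.

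Col1a2 (chr6:4504814-4541544) was lower than its partner Col1a1 in AEC1, at 157.1 and 119.6 CPM untreated, 316.6 and 107.6 after papain, and 330.2 and 180.5 after papain with FK506. It was at 0 in all 6 AEC2 libraries, so the AEC1 mean was at least 81.2-fold higher than the 3 reads a library could hold unseen (log2 difference 6.49, SE 0.69, limma adjusted p = 0.000164). Col1a1 exceeded Col1a2 by 7.18 to 15.8 times within AEC1 libraries. Both values are per gene and not per length, so this ratio describes reads.

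The type V chains regulate fibril width, and all 3 followed the same pattern. Col5a1 stood at 197.5 and 103.5 CPM in untreated AEC1, 661.8 and 529 after papain, and 813.3 and 373.9 after papain with FK506. Col5a2 stood at 188.6 and 18.4, then 572.8 and 193.8, then 360.6 and 189.9 CPM. Col5a3 stood at 21.3 and 46, then 274.2 and 196.8, then 575.3 and 300.8 CPM. All 3 were at 0 in every AEC2 library. AEC1 means were at least 179.6-fold (Col5a1), 102.2-fold (Col5a2) and 94.8-fold (Col5a3) above the 3-read limit, with limma adjusted p of 3.23e-05, 0.000433 and 0.000282. The remaining fibrillar chain tested was Col27a1, where AEC1 minus AEC2 was 1.86 (SE 0.56, limma adjusted p = 0.0529). It was at 130.7 and 50.7 CPM in the AEC1 libraries with papain and FK506, 1.2 CPM in 1 untreated AEC1 library, 7.5 CPM in 1 basophil papain library and 0 in the other 24.

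The basement membrane chains divided into 2 behaviours. Col4a1 and Col4a2 encode the chains of the common type IV network and were present in libraries of both labels, AEC1 and AEC2. Col4a1 stood at 20.7 to 486 CPM in AEC1 (median 318.85) and 81.3 to 251.9 CPM in AEC2 (median 140.35), and AEC1 minus AEC2 was 0.48 (SE 0.55, limma adjusted p = 0.5997). Col4a2 stood at 4.6 to 208.9 CPM in AEC1 (median 127.85) and 67 to 152 CPM in AEC2 (median 101.25), and AEC1 minus AEC2 was -0.41 (SE 0.65, limma adjusted p = 0.723). For both genes the 2 populations overlapped, and the sign was not stable: Col4a1 was -1.20 within untreated libraries, while Col4a2 was 0.0636 within papain and 0.88 within papain with FK506.

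The other 4 type IV chains, which form the specialised networks of kidney and lung basement membranes, were seen mainly in AEC1. Col4a3 stood at 71.8 and 19.6 CPM in untreated AEC1, 28.6 and 0 after papain, and 5.8 and 27.1 after papain with FK506, and was at 0 in all AEC2, ILC2 and basophil libraries. Col4a5 was at 0 in both untreated AEC1 libraries, at 23.3 and 81 CPM after papain, and at 14 and 20.1 CPM after papain with FK506, and was at 0 in all libraries of the other 3 populations. Both were called higher in AEC1 (log2 difference 3.00, SE 0.87, limma adjusted p = 0.0458 for Col4a3; 2.54, SE 0.67, limma adjusted p = 0.0293 for Col4a5), although both overlap AEC2 at 0 in at least 1 library. Neither call was firm, since leaving out any 1 AEC2 library ended both of them, as did leaving out both near-identical ones (limma adjusted p = 0.134 and 0.0932). Col4a4, the head-to-head partner of Col4a3, stood at 166.1 and 66.7, then 0 and 104.6, then 0 and 31.8 CPM in AEC1 and at 50.1 CPM in 1 AEC2 library (limma adjusted p = 0.175). Col4a6, the partner of Col4a5, reached 64.4 CPM in AEC1 (limma adjusted p = 0.0670). Both partners of each pair were detected in AEC1, but not in the same set of libraries.

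Type VI collagen is built from the chains of Col6a1, Col6a2 and one further chain such as Col6a3. Col6a3 (chr1:90765923-90843971) stood at 159.4 and 98.9 CPM in untreated AEC1, 972 and 464.4 after papain, and 1319.8 and 947.2 after papain with FK506. In AEC2 it was at 0 in 5 libraries and at 30.7 CPM in 1 with papain and FK506 (log2 difference 7.13, SE 0.75, limma adjusted p = 0.000164). Col6a2 (chr10:76595762-76623630) stood at 96.5 and 126.5, then 749.6 and 672.5, then 352.4 and 256 CPM in AEC1. It was the only type VI chain above 0 in all 6 AEC2 libraries, at 36.5 to 63 CPM, and the log2 difference was 2.53 (SE 0.40, limma adjusted p = 0.00220) with no overlap. With the replicate number as a block the Col6a2 call ended (limma adjusted p = 0.0534), and it was not made within untreated (0.466) or within papain with FK506 (0.0688); it held without the near-identical AEC2 libraries (0.00546). Col6a1 did not follow its partners: it was at 0 to 47.2 CPM in AEC1 and at 76.3 CPM in 1 AEC2 library (limma adjusted p = 0.573). Col6a5 reached 155.8 CPM in AEC1 and was at 0 in AEC2 (limma adjusted p = 0.0543), and Col6a4 was above 0 in 1 library only, at 11.2 CPM.

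Of the other collagens, 3 were called higher in AEC1 and all 3 were at 0 in every AEC2 library. Col14a1, a fibril-associated chain, stood at 322.1 and 124.2 CPM untreated, 169.4 and 207.1 after papain, and 44.3 and 97.9 after papain with FK506 (mean at least 64.7-fold above the 3-read limit, limma adjusted p = 0.000360). Col16a1, also fibril-associated, stood at 59.5 and 48.3, then 243.5 and 69.7, then 176.2 and 186.4 CPM (at least 52.5-fold, limma adjusted p = 0.000486). Col18a1, the multiplexin that releases endostatin, stood at 1.1 and 81.7, then 191.6 and 98.4, then 205.4 and 57.8 CPM (at least 42.6-fold, limma adjusted p = 0.00751). The Col18a1 call ended with the replicate block (limma adjusted p = 0.109) and was not made within any 1 treatment (0.459, 0.0793 and 0.106); without the near-identical AEC2 libraries the adjusted p was 0.0338. The transmembrane chain Col23a1 differed from these in being present in both populations: it stood at 1.1 and 13.8, then 79.4 and 24.6, then 150.5 and 80.2 CPM in AEC1 and at 78, 83.1 and 86.3 CPM in 3 AEC2 libraries, with the other AEC2 libraries at 0 (limma adjusted p = 0.429). Col12a1 and Col13a1 reached 103.8 and 70 CPM in AEC1, with limma adjusted p of 0.277 and 0.0875.

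**Figure D3:**
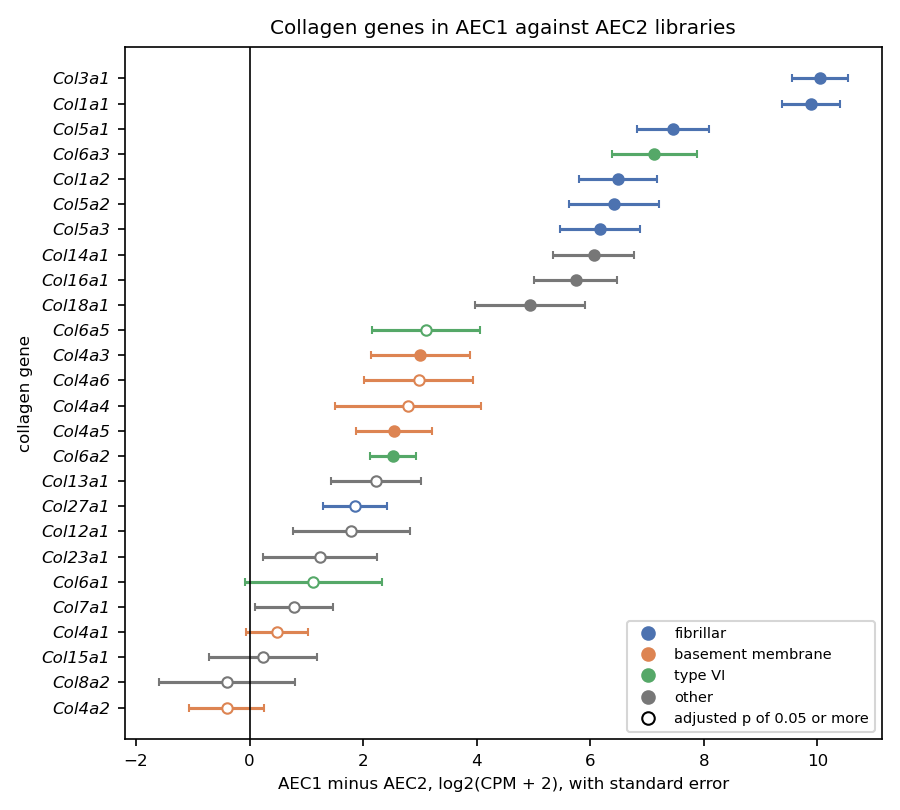
Log2 difference of AEC1 minus AEC2, averaged over treatments, for the 26 collagen genes tested (points, with standard error), coloured by class. Open points have an adjusted p of 0.05 or more; Col3a1 and Col1a1 lie at 10.04 and 9.89, and Col4a1 and Col4a2 lie near 0.

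The difference was also tested in each treatment taken alone, over the same 26 genes and with the same limit on lower calls. Within untreated libraries 6 collagen genes were called higher in AEC1 (2.14% of all genes were called, 1.58% higher and 0.569% lower): Col1a1, Col1a2, Col3a1, Col5a1, Col6a3 and Col14a1. Within papain libraries 10 were called higher and 0 lower (1.96% of all genes were higher and 0.884% lower, 2.85% in all), and there Col1a1 differed by 10.37 and Col3a1 by 10.77 (limma adjusted p = 0.000127 and 0.000111). Within papain with FK506, 9 were called higher and 0 lower (1.85% of all genes were higher and 1.09% lower, 2.94% in all), and these 2 differences were 10.00 and 10.03 (limma adjusted p = 0.000222 and 0.000188). Without the near-identical AEC2 libraries the counts were 5, 9 and 8, with 0 lower.

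Many genes of collagen folding, secretion, cross-linking and control were also higher in AEC1. Of 80 such genes in the AEC tables, 63 were tested, 28 were higher in AEC1 and 0 lower, and the median difference was 2.36. Without the near-identical AEC2 libraries 21 were higher and 0 lower. Serpinh1, the collagen chaperone HSP47, was at 4.6 to 185.5 CPM in AEC1 and at 0 in all 6 AEC2 libraries (limma adjusted p = 0.00486). Fkbp10, another chaperone of collagen, was at 5.6 to 173.6 CPM in AEC1 and at 35 CPM in 1 AEC2 library (log2 difference 3.83, SE 1.00, limma adjusted p = 0.0284, and 0.0712 without the near-identical AEC2 libraries). The largest differences in this group were those of Dcn (decorin, a fibril-binding proteoglycan; 9.75), Ccn2 (a matricellular growth factor; 7.57), Ddr2 (a collagen receptor; 6.63) and Loxl1 (a cross-linking enzyme; 6.53), each with a limma adjusted p below that of Serpinh1. By role, the called genes were 7 of 17 chaperones and hydroxylases, 5 of 12 secretion and cross-linking genes, 5 of 6 proteoglycans, 2 of 5 receptors, 4 of 8 breakdown genes and 5 of 15 TGF-beta and other fibrogenic signal genes.

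Markers of other lung cells moved in the same comparison. Of 18 fibroblast markers other than collagens, 16 were tested and 11 were higher in AEC1; their sum was 5212.9 to 7971.9 CPM in AEC1 and 437.8 to 890 CPM in AEC2. Dcn was the highest of them in AEC1 (1618.7 to 3494.9 CPM) and is in the pathway list too, Pi16 and Scara5 were at 0 in AEC1, and 10 of the list were at 0 in every AEC2 library, among them Pdgfra, Dpt, Lum and Tcf21. Of 10 mesothelial markers, 9 were higher in AEC1, with sums of 2337.5 to 8330.9 CPM against 6 to 158.2 CPM, with Lrrn4 the highest in AEC1, and Wt1, which defines them, was at 0 in AEC2. Of 11 type 2 alveolar markers, 10 were tested and all 10 were lower in AEC1, with sums of 1696.5 to 10209.1 CPM against 121415 to 145915 CPM. Without the near-identical AEC2 libraries, 11 of 15 fibroblast and 9 of 10 mesothelial markers tested were higher and 9 of 10 type 2 alveolar markers lower. The part of these cells in the collagen difference was not tested.

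After papain, several AEC1 collagen genes lay above both untreated libraries, but 0 passed the test. In the comparison of papain with untreated AEC1, limma called 0.0% of 8178 genes, and of the 25 collagen genes tested 0 were called while 9 had an unadjusted p under 0.05. Of the 25, 13 had both papain libraries above both untreated ones, which held for 19.2% of all genes, and 0 had both below, which held for 14.2%. The median difference was 2.11 (2.29 with genes at 0 set to their bound), against 0.16 over all genes. Summed collagen CPM was 5397 and 2725 in untreated libraries and 14043 and 7504 after papain, so the groups did not overlap.

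Col6a2 and Col6a3 showed the largest differences relative to their errors, which did not hold for the type VI chain Col6a1 (-0.16, SE 2.24). The Col6a2 values listed above, 96.5 and 126.5 CPM untreated and 749.6 and 672.5 after papain, give 2.68 on the log2 scale (SE 0.47, limma adjusted p = 0.329), and those of Col6a3 give 2.42 (SE 0.45, limma adjusted p = 0.397). Among fibrillar chains the difference was 2.83 for Col5a3 (SE 0.66), 2.05 for Col5a1 (SE 0.52) and 1.48 for Col3a1 (SE 0.40), each with a limma adjusted p of 0.442. Col1a1 differed by 1.09 (SE 0.46, limma adjusted p = 0.530), and its papain replicate at 1703.8 CPM lay below the untreated replicate at 1804.7 CPM. The basement membrane chain Col4a1 was at 160.5 and 20.7 CPM untreated and at 452.1 and 185.6 CPM after papain, with a difference of 2.29 (SE 0.87, limma adjusted p = 0.4996). The result depends on the test: DESeq2 on the recovered reads called 6 collagen genes higher (Col3a1, Col4a5, Col5a1, Col5a3, Col6a2 and Col6a3, among 325 genes in all), while edgeR on the same reads called 0 of them and 15 genes in all.

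With FK506 added to papain, most collagen genes of AEC1 were above untreated in both libraries, although 0 passed limma's test. Compared with untreated, 16 of 25 had both libraries above (24.9% of all genes did) and 2, Col14a1 and Col4a4, had both below (14.4% did). Col27a1, counted among the 16, passed the filter only through the FK506 libraries and could not have come out lower. Limma called 0 collagen genes and 0.0245% of all genes, while 12 collagen genes had an unadjusted p under 0.05. The largest separation was that of Col6a3 (log2 difference 3.00, SE 0.45, limma adjusted p = 0.120), followed by Col5a3 (3.51, SE 0.66, limma adjusted p = 0.201) and Col5a1 (1.80, SE 0.52, limma adjusted p = 0.314). Col1a1 differed by 1.19 (SE 0.46, limma adjusted p = 0.381) and Col3a1 by 0.98 (SE 0.40, limma adjusted p = 0.403), and for both the groups did not overlap. Col14a1 went the other way, with a difference of -1.70 (SE 0.73, limma adjusted p = 0.425). Here edgeR on recovered reads called Col6a3 (adjusted p = 0.0125), and DESeq2 called 6 collagen genes higher: Col4a1, Col5a1, Col5a3, Col6a2, Col6a3 and Col12a1. The share of all genes that these tests called here is not given, so the counts are not read as particular to collagens.

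Between papain with FK506 and papain alone, the AEC1 collagens were divided in direction. Limma called 0.0% of all genes and 0 of 25 collagen genes, of which 2 had an unadjusted p under 0.05; 12 differences were above 0 and 13 below, with a median of -0.20 against 0.08 over all genes. In all, 4 had both libraries above (Col4a1, Col5a3, Col23a1 and Col27a1), as did 19.5% of all genes. Both libraries lay below for 4 (Col4a5, Col6a2, Col6a5 and Col14a1), as for 12.9% of all genes. Col27a1 reached 10 CPM only in the FK506 libraries and passed the filter through them. It could not have come out lower, so its place in this count carries no weight. Col27a1 was at 0 in both papain libraries and at 130.7 and 50.7 CPM with FK506, a mean at least 28.6-fold above the 3-read limit (limma adjusted p = 0.651). Col6a2 differed by -1.39 (SE 0.47, limma adjusted p = 0.656) and Col14a1 by -1.62 (SE 0.73, limma adjusted p = 0.822). DESeq2 on recovered reads called 2 of them, Col27a1 and Col6a2 (adjusted p = 0.0493 and 0.0203), and edgeR called 0, again without a share over all genes to set beside them. The 3 comparisons share their groups, so their values are not independent.

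**Figure D4:**
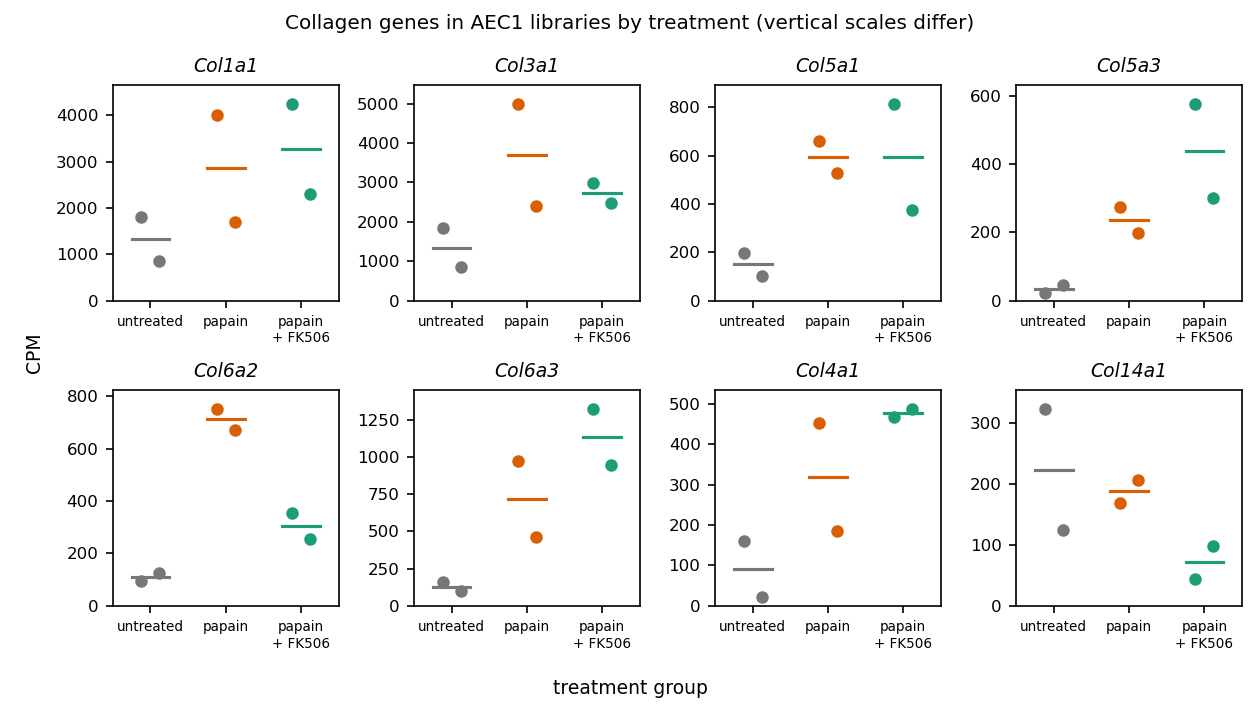
CPM of 8 collagen genes in the 6 AEC1 libraries by treatment (points are libraries, lines are means of 2), each panel on its own vertical scale from 0. Col6a2 is at 96.5 and 126.5 CPM untreated and at 672.5 and 749.6 CPM after papain, while Col14a1 has its lowest values, 44.3 and 97.9 CPM, with FK506.

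Marker levels of other cells differed across the AEC1 groups too. The sum of 12 smooth muscle and pericyte markers was 41.5 and 139.3 CPM untreated, 859.8 and 311.7 after papain, and 1866 and 1395 after papain with FK506. Acta2, a smooth muscle and myofibroblast actin, was at 0 in both untreated libraries and at 549.5 and 114.8 CPM after papain, and was higher than untreated with papain and FK506, at 1271.9 and 839.8 CPM (limma adjusted p = 0.0333). Mesothelial markers summed to 8330.9 and 6350.8 CPM untreated and to 2337.5 to 5471.1 CPM in the treated libraries. Type 2 alveolar markers summed to 6808 and 10209.1 CPM untreated, 2538.2 and 1696.5 after papain, and 2045.6 and 4789.2 after papain with FK506, so both untreated libraries lay above the treated ones. Fibroblast markers other than collagens did not separate, at 7088.7 and 6408.3 CPM untreated and 5212.9 to 7971.9 CPM treated. The part of these cells in the collagen values was not tested. Of the 62 pathway genes tested, 0 were called by limma in any of the 3 AEC1 comparisons, and 7, 16 and 3 had an unadjusted p under 0.05 for papain against untreated, papain with FK506 against untreated and papain with FK506 against papain.

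In AEC2, no collagen gene passed the test for treatment, but the comparison of papain with untreated has little weight, since replicate 2 of each group is nearly the same library. Only 15 of 6719 genes had an unadjusted p under 0.05 there, and 487 of 5029 did with both left out, where 0 of the 4 collagen genes tested were called in any of the 3 comparisons. With all 6 libraries 5 passed the filter (Col4a1, Col4a2, Col6a2, Col8a2 and Col23a1), and 0 were called in each of the 3 comparisons, in which limma called 0.0% of 6719 genes; none had an unadjusted p under 0.05. Col4a1 was at 170 and 91.6 CPM untreated, 251.9 and 81.3 after papain, and 110.8 and 169.9 after papain with FK506. Col4a2 was at 67 and 143.1, then 95.6 and 152, then 69.6 and 106.9 CPM, and Col6a2 at 37 and 45.4, then 63 and 47.7, then 44.9 and 36.5 CPM. For Col4a1 and Col4a2 the 3 groups overlapped. Col23a1 was at 78 and 83.1 CPM untreated, 0 and 86.3 after papain, and 0 in both libraries with papain and FK506 (limma adjusted p = 0.919 against untreated).

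The treatment differences of AEC1 were also set against those of AEC2 in 1 model. For 0 of the 26 collagen genes did the difference between AEC1 and AEC2 pass limma's test in any of the 3 contrasts, in which 0.0% of 9841 genes were called; 3, 1 and 3 collagen genes had an unadjusted p under 0.05. Without the near-identical AEC2 libraries 0 were called, and 1, 1 and 3 had an unadjusted p under 0.05. The largest was Col23a1 for papain with FK506 against untreated, where AEC1 went from 1.1 and 13.8 to 150.5 and 80.2 CPM and AEC2 from 78 and 83.1 to 0 and 0 CPM, a difference of 9.31 between the 2 (SE 2.46, limma adjusted p = 0.508). Col27a1 differed by 5.21 for papain with FK506 against papain (SE 1.37, limma adjusted p = 0.723), and Col6a2 by 2.38 for papain against untreated (SE 0.99, limma adjusted p = 0.972). For papain with FK506 against papain, edgeR on recovered reads called Col6a3, whose only AEC2 value above 0 was 30.7 CPM (adjusted p = 0.0343), and DESeq2 called 0.

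In ILC2 libraries, collagen signal lay mostly in replicate 3 of each group, which carries a different code in the file names from replicates 1 and 2. Col1a2 was at 11, 35 and 392 CPM in untreated libraries, 0 in all 3 papain libraries, and 0, 53 and 79 CPM with papain and FK506. Col3a1 was at 0, 8 and 213, then 0, 0 and 83, then 0, 13 and 42 CPM. Col1a1 was at 0, 0 and 151, then 19, 0 and 0, then 0, 3 and 36 CPM. The value of replicate 3 is the highest in each of these groups except for Col1a1 after papain and for Col1a2 after papain, where all are 0. The type IV chains were alike except for Col4a1 after papain: Col4a1 was at 13, 0 and 154, then 22, 0 and 0, then 0, 8 and 78 CPM, and Col4a2 at 0, 0 and 111, then 17, 0 and 325, then 0, 0 and 102 CPM. Col6a2 reached 190 CPM in untreated replicate 3 and was at 0 or 2 CPM elsewhere, and Col18a1 reached 90 CPM with papain and FK506.

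In ILC2, 5 collagen genes passed the filter, and with the code as a term limma called 0 of them in each comparison; 1, 0 and 0 had an unadjusted p under 0.05. It called 0.0% of 6271 genes for papain against untreated and for papain with FK506 against untreated, and 0.0159% for papain with FK506 against papain. A single collagen gene did not overlap between papain and untreated libraries: Col1a2, listed at 0 after papain (limma adjusted p = 0.985; 3.03% of all genes were lower without overlap). In replicates 1 and 2 alone, 0 collagen genes were called. Replicate 3 also held more transcripts of other cells: 18 fibroblast markers summed to 2031, 483 and 817 CPM in replicate 3 of the 3 groups and to 36 to 378 CPM in the other 6, and 14 endothelial markers to 1732, 1136 and 451 CPM against 20 to 205 CPM. ILC2 markers summed to 1740, 4237 and 560 CPM in replicate 3 and to 3020 to 4511 CPM in the others. Their part in the collagen values was not tested.

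In libraries labelled basophil, fibrillar chains were higher in all 3 libraries with papain and FK506 than in all 3 with papain for Col1a1, Col1a2 and Col5a1, although 0 passed limma's test. Col1a2 was at 31.1, 77.2 and 46.4 CPM after papain and 262.7, 362.6 and 403.8 CPM with FK506 (log2 difference 2.72, SE 0.65, limma adjusted p = 0.391). Col1a1 was at 76.8, 55.6 and 0 CPM and then 251.4, 197.4 and 194.6 CPM (3.35, SE 1.05, limma adjusted p = 0.687). Col3a1 was at 53.8, 37.8 and 2.7 CPM and then 388.4, 211.3 and 53.5 CPM (2.90, SE 1.13, limma adjusted p = 0.707); here the lowest FK506 library was just under the highest papain library. The order of the 2 type I chains was mixed over these libraries. Col1a1 was 0.482 to 0.957 times Col1a2 in the 3 FK506 libraries, unlike in AEC1. The ratio was 2.47, 0.720 and 0 in papain replicates 4, 5 and 6, and 269 in the untreated library.

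Of the other chains, Col5a1 was at 9.6, 0 and 0 CPM and then 14, 40.6 and 91.6 CPM (3.50, SE 1.58, limma adjusted p = 0.812). Col6a2 was at 24.3, 10 and 30 and then 95.6, 142.2 and 59.2 CPM (2.103, SE 1.04), and Col18a1 at 47.4, 13.9 and 30.7 and then 143.6, 62.9 and 108.7 CPM (1.75, SE 0.96), with limma adjusted p of 0.812 and 0.820. For both, the 2 groups did not overlap. The type IV chains overlapped: Col4a2 was at 193.3, 57.2 and 7.8 and then 355.2, 195.2 and 89.2 CPM (1.91, SE 0.87, limma adjusted p = 0.812), and Col4a1 at 268.9, 51.1 and 0.7 and then 28.8, 160.8 and 77 CPM. Col14a1 went the other way, at 11.2, 18.4 and 49.1 and then 0.4, 11 and 0 CPM.

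**Figure D5:**
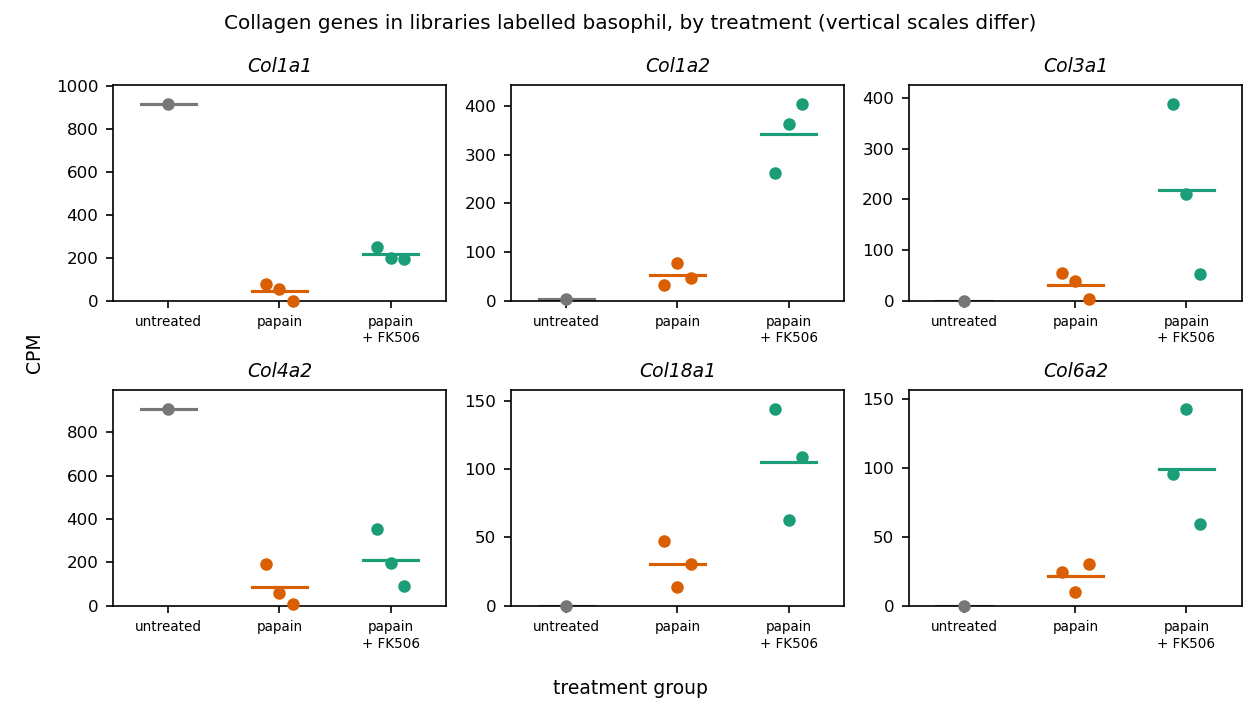
CPM of 6 collagen genes in the 7 libraries labelled basophil by treatment (points are libraries, lines are means; untreated has 1 library), each panel on its own vertical scale from 0. The 3 points with papain and FK506 lie above the 3 papain points for Col1a1, Col1a2, Col18a1 and Col6a2.

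Of the 12 collagen genes tested there, 5 were higher without overlap (Col1a1, Col1a2, Col5a1, Col6a2 and Col18a1), as were 5.77% of all genes. A single gene, Col14a1, was lower without overlap, as were 5.62%. Col5a1 reached 10 CPM only in the FK506 libraries and passed the filter through them. It could not have come out lower, so its place in this count carries no weight. Limma called 0.0% of 5853 genes, and 5 of the 12 had an unadjusted p under 0.05. The median difference of the 12 was 2.05, against -0.07 over all genes. Marker sums of other cells also differed between these groups: 18 fibroblast markers summed to 916.1, 425.2 and 191 CPM after papain and 1238.9, 1466.1 and 823.8 CPM with FK506, of which Tcf21 and Scara5 were at 0 in all. Smooth muscle and pericyte markers summed to 81, 39.4 and 76 and then 901.6, 907.9 and 734.6 CPM, with Cspg4 at 0 in all. Type 2 alveolar markers summed to 1827.9, 888 and 1209.3 and then 11426.1, 9168.3 and 2438.9 CPM. The 16 myeloid markers summed to 5465.3, 9612.1 and 11579.8 and then 3383.2, 4905.9 and 6848.7 CPM. Their part in the collagen differences was not tested.

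The single untreated basophil library, which may be of 1 animal or a pool, stood apart from the rest. It had 2002 genes above 0, the lowest of all 28 libraries, and 3 collagen genes made up most of its sum: Col1a1 at 914.2 CPM, Col4a2 at 904.5 CPM and Col13a1 at 398.4 CPM, a transmembrane chain that did not exceed 12.4 CPM in the other 6. Against this library, limma called 23.1% of 5853 genes after papain (21.1% higher and 2.0% lower) and 23.3% with papain and FK506 (21.1% higher and 2.2% lower). The median of all genes was 3.05 and 3.09 higher, a shift that the collagen and pathway values below include. After papain, 4 of 12 collagen genes were called: Col1a2 (3.4 CPM untreated; log2 difference 3.48, SE 0.91, limma adjusted p = 0.0119) and Col18a1 (listed at 0 untreated; limma adjusted p = 0.0468) were higher, and Col1a1 (-5.10, SE 1.48, limma adjusted p = 0.0214) and Col4a2 (-3.85, SE 1.23, limma adjusted p = 0.0332) were lower. With papain and FK506, 4 were higher: Col1a2 (6.20, SE 0.91, limma adjusted p = 0.000166) and Col3a1, Col6a2 and Col18a1, all 3 listed at 0 untreated (limma adjusted p = 0.00828, 0.0117 and 0.00638). Upper-quartile scaling turned the direction of Col1a2, to -3.51 after papain and -0.88 with FK506. The papain calls were not firm: leaving out any 1 of FK506 replicates 7, 8 and 9 gave 1 call, and without FK506 replicate 8 the calls with FK506 were 2. Of 33 pathway genes tested, 10 were higher after papain and 12 with FK506 and 0 lower, where most calls over all genes were also higher. They were led by Itgb1 (an integrin subunit of collagen receptors) and Mmp14 (a membrane collagenase). The lone untreated library gives no spread of its own, and the fit assumes that it varies like the other groups.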

How the data were processed

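Libraries were made from 10 ng of RNA with QuantSeq, which reads transcript 3′ ends. Per the submitters' processing notes, STAR 2.7.0c, featureCounts 1.6.0 and build mm10 (GRCm38.p6) were named. The authors deposited CPM for AEC1, basophil and 5 AEC2 libraries. Untreated AEC2 replicate 1 and the ILC2 libraries were deposited as whole numbers. These were treated as CPM rounded by the authors, a score rather than a count, which limits low values. That unit was assumed and not established, and the ILC2 divisor is unknown. Whole reads could be recovered in the other AEC tables.

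Values were scaled by TMM factors, transformed as log2(CPM + 2) and tested two-sided with limma 3.58.1 (R 4.3.3; trended empirical Bayes, Benjamini-Hochberg over all genes at 10 CPM or more in 2 AEC libraries, or 3 ILC2 or basophil libraries). ILC2 had the code in the file names as a term. edgeR 4.0.16 and DESeq2 1.42.0 on recovered reads were alternatives. All pairs of libraries within a cell type were compared, and AEC2 results were refitted without a nearly identical pair (added after seeing the data). The steps were tested on simulated data. The members and lists were chosen with earlier results of these data known. Values in every library are given for members averaging at least 50 CPM in a cell type, with an adjusted p under 0.05 in any comparison, or highest in their class; Serpinh1, Fkbp10 and up to 4 called pathway genes per direction and comparison are named. Other members were named after their values were seen. The 3-read limits cover counting error only.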

Additional observations from a re-analysis of the deposited data

Results flagged for a closer look

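Col6a2 moved in opposite directions between cell types for papain with FK506 against papain, with every library of one group on the same side in each. The log2 difference was -1.39 in AEC1 and 2.103 in libraries labelled basophil, and -0.41 in AEC2 against the same 2.103. Lower values without overlap were found for 12.9% of all genes in AEC1 and 10.7% in AEC2. Higher values without overlap were found for 5.77% in basophil libraries. In AEC2 the gap was small, with 63 and 47.7 CPM after papain and 44.9 and 36.5 CPM with FK506. The AEC2 value includes papain replicate 2 (47.7 CPM), which is nearly identical to untreated replicate 2. None of the 3 passed limma's test within its cell type. The difference between cell types was not tested, since the tables were normalized separately.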

How the results depend on the processing

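Over 55 named log2 differences and their alternatives (1092 values), 996 kept direction and side of the threshold, 72 lost significance, 17 gained it and 7 reversed. Counts of called collagen genes stayed within 1.5 times in 299 of 313 values, but most of these are counts of 0 that stayed at 0. Where the main test made calls, the count held in 26 of 27 alternatives for AEC1 against AEC2. Against the lone untreated basophil library it held in 8 of 14 for papain and 13 of 14 for papain with FK506. The cause of the changes was not tested.

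AEC1 against AEC2 gave 6 calls within untreated libraries, in place of 13. The reversals there concerned uncalled genes: Col4a1 was -1.20 within untreated, and Col4a2 was 0.0636 within papain, 0.88 within papain with FK506. The Col4a2 log2 difference, AEC1 versus AEC2, ran from -0.98 to 0.24 as each replicate was left out, the last without untreated AEC1 replicate 2. In AEC1, DESeq2 on recovered reads called 6 collagen genes for papain and 6 for papain with FK506 against untreated and 2 between the treatments. For papain with FK506 against untreated, edgeR on recovered reads called 1, as did a pseudocount of 10. For edgeR and DESeq2, calls over all genes are given above only for papain against untreated AEC1. For the difference between AEC1 and AEC2 in papain with FK506 against papain, edgeR called 1. Papain against the lone untreated basophil library gave 4 calls, but 2 with a pseudocount of 10, 1 without a filter, 0 without a variance trend, and 1 to 4 with replicates left out. With FK506 the 4 calls became 2 to 5 with replicates left out and 2 to 6 over all alternatives. Upper-quartile factors reversed Col1a2, to -3.51 after papain and -0.88 with FK506. Leaving out the untreated basophil library gives no value for either.

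Same-numbered libraries did not deviate together in every pair (correlations across genes of -0.019 to 0.017 in AEC1, -0.009 to 0.446 in AEC2 and 0.051 to 0.235 in ILC2) and the labels do not pair the samples, so no pairing was used. The 0.446 belongs to untreated and papain AEC2, whose replicate 2 libraries are nearly identical. Leaving both out, chosen after seeing the data, lowered the number of collagen calls for AEC1 against AEC2, over all treatments and within each. The median collagen difference there was then 2.90. The collagen counts of the other comparisons did not change. With the replicate block, AEC1 against AEC2 gave 9 calls, Col4a2 was 0.53, and Col4a3, Col4a5, Col6a2 and Col18a1 lost their calls. It changed no other count. In ILC2, replicates 1 and 2 do not always correlate best with their own number. Basophil titles share no numbers, so no block could be fitted there.

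Depth limits the AEC values near 3 reads, and the rounded or unknown depths limit ILC2 and basophil values.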
